A study of Caenorhabditis elegans with 2 samples.

Results

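The genes described here are 5 Caenorhabditis elegans genes of messenger RNA splicing, 3′ end processing and translation, namely snr-1, sftb-6, cpf-2, eif-3.C and eef-1A.1. They were selected on the measurement itself, because each had a thresholded HMBX-1-GFP region with its summit within 1000 bp of the gene's start. They are 5 of 19973 annotated nuclear protein-coding genes, of which 297, or 1.49%, had such a region. That share is printed for reference, and nothing is read from the fact that 5 of 5 members had a region, since this is how they were chosen. Occupancy was measured by chromatin immunoprecipitation with sequencing (ChIP-seq) in strain OP656, which carries unc-119(tm4063) III and the transgene wgIs656, a source of HMBX-1 with GFP and FLAG at its C terminus. The material was whole early embryos of mixed sex, collected 45 min after synchronization by bleaching, in 2 biological replicates of a single group. Both replicates came from the same transgenic strain, so there is no contrast between genotypes, treatments or times, and no untagged strain was analysed here. The sample description gives an antibody against GFP while the antibody field names hmbx-1, and the labels do not settle which was used. The labels do not state which promoter drives the transgene, and whole embryos do not resolve cell types.

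HMBX-1 is related to human HMBOX1 (HOT1), a homeobox protein that binds double-stranded telomeric repeats. The 5 genes act at successive steps of gene expression. In splicing, Sm proteins form the ring that holds each spliceosomal small nuclear RNA, and the SF3b complex of the U2 particle settles on the branch point of the intron. Cleavage stimulation factor then helps define the 3′ end of the messenger RNA, eIF3 brings the small ribosomal subunit to the message, and eEF1A delivers charged transfer RNAs to the elongating ribosome. All of these factors are needed in essentially every cell, including those of the early embryo.

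The sequences under 4 of the 5 summits are shown because they differ widely in base composition and let the placement of the summit be read base by base. The eif-3.C window is not shown here. Each window is 151 bases centred on the thresholded summit and is written 5′ to 3′ on the strand of the gene, from the RefSeq WBcel235 genome. Capitals mark the stretch that spans the summits of the thresholded list and of both replicates, so a short run of capitals means that the lists placed the summit at nearly the same base. The windows are chrIV:17087506-17087656 for snr-1 (plus strand), chrII:98110-98260 for sftb-6 (plus strand), chrIII:13268977-13269127 for cpf-2 (minus strand) and chrIII:6971966-6972116 for eef-1A.1 (minus strand).
snr-1: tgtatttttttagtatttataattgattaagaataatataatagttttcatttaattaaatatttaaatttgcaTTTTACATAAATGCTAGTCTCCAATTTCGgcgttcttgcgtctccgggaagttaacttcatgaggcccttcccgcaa
sftb-6: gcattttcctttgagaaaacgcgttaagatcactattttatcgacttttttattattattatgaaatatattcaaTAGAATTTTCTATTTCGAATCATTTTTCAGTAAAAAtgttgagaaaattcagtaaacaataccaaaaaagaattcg
cpf-2: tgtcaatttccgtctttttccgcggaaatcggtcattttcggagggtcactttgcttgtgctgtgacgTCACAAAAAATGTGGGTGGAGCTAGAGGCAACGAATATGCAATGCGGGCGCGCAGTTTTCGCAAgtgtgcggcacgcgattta
eef-1A.1: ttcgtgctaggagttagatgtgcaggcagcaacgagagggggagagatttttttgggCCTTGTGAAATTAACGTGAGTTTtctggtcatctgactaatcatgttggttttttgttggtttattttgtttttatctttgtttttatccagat

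The capitals covered 29 bases at snr-1, 36 at sftb-6, 64 at cpf-2 and 23 at eef-1A.1. The sftb-6 and snr-1 stretches were rich in A and T, and the cpf-2 stretch held runs of G and C. No annotated exon of a protein-coding gene lay in these windows, but the eef-1A.1 window overlapped the annotated microRNA gene cel-mir-5549.

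Every region carries a signal value from the authors' peak caller, used here only to describe and rank regions within a list. The thresholded list came from the irreproducible discovery rate (IDR) procedure, which compares ranks between lists. A place on it does not mean that a region ranked alike in both replicates. The kept region with its summit at 386114 on chromosome II ranked 255 in replicate 1 and 7681 in replicate 2. It held 437 regions, 416 of them nuclear, with nuclear signal from 95.3 to 688.3 and a median of 134.0. The relaxed lists, which hold peaks together with background, had 29978 nuclear regions for the pooled replicates, 25383 for replicate 1 and 22887 for replicate 2. The 416 nuclear thresholded regions were exactly the 416 of highest signal in the pooled relaxed list. The lowest signal inside the threshold was 95.31 and the highest outside it was 95.23. Read depth is unknown, so no interval for a signal value can be given.

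The 5 genes were spread over most of the thresholded list by rank. The signal was 299.3 at snr-1, 185.5 at eif-3.C, 125.3 at sftb-6, 117.1 at cpf-2 and 99.5 at eef-1A.1. Among the 416 nuclear regions these values ranked 26, 120, 239, 268 and 376. Thus snr-1 and eif-3.C lay above the median signal and the other 3 genes lay below it, with eef-1A.1 only a little above the lowest value that was kept. The −log10 q value was 2.24 at snr-1, sftb-6 and eif-3.C, 2.06 at cpf-2 and 2.05 at eef-1A.1.

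**Figure D1:**
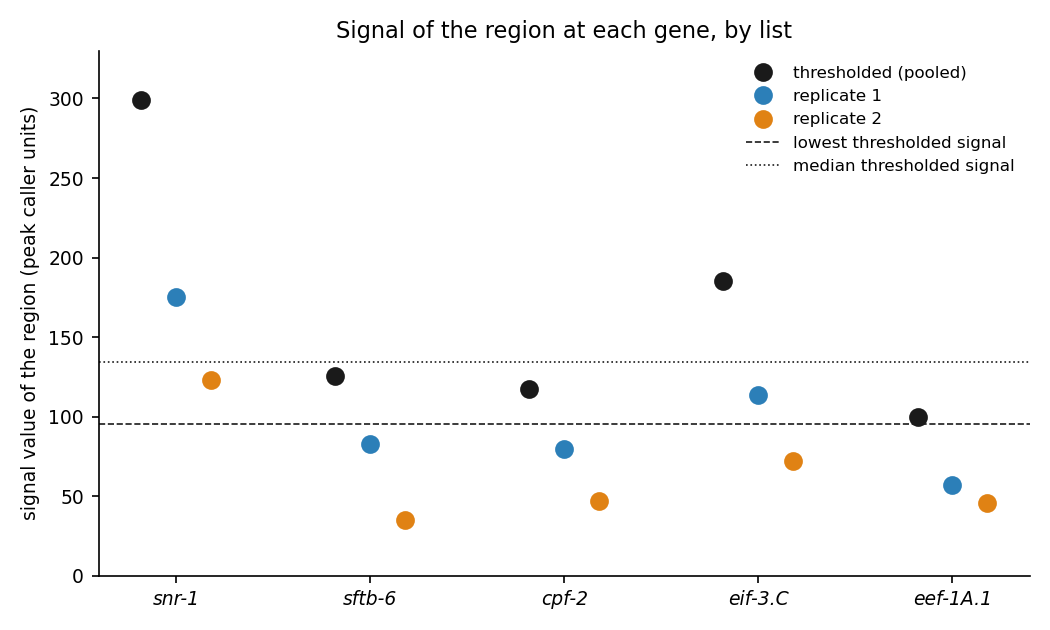
Signal of the thresholded region of each gene (pooled replicates) and of the strongest region overlapping it in replicate 1 and in replicate 2, in peak caller units. The dashed line is the lowest nuclear thresholded signal (95.3) and the dotted line the nuclear median (134.0), both of which apply to the pooled values. The order of the genes in the pooled list runs from 299.3 at snr-1 to 99.5 at eef-1A.1, and every gene has a lower value in replicate 2 than in replicate 1.

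Each of the 5 regions was also listed in both replicates. For snr-1 the signal was 174.9 in replicate 1 and 122.8 in replicate 2. For eif-3.C it was 113.8 and 71.8, and for sftb-6 it was 82.5 and 35.2. Replicate 1 was higher at all 3. How the scale of the signal compares between the lists is not stated, so scale, depth and enrichment cannot be told apart in this difference. For cpf-2 the values were 79.7 and 47.0, and for eef-1A.1 they were 56.7 and 45.97.

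The pooled value was close to the sum of the replicate values. Each thresholded region was matched to the strongest region overlapping it in each replicate, here and for the replicate ratios and summit gaps below. Adjacent thresholded regions could therefore share a match and enter these distributions with the same replicate values. Over the 416 regions the pooled signal divided by that sum had a median of 0.998, with quartiles of 0.979 and 1.01. The lowest value, 0.216, was at a region that shared its match. The 5 genes had values of 1.01 at snr-1, 0.999 at eif-3.C, 1.06 at sftb-6, 0.924 at cpf-2 and 0.969 at eef-1A.1. The sftb-6 value was above the upper quartile, and the cpf-2 and eef-1A.1 values were below the lower one.

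The ratio of replicate 1 to replicate 2 had a median of 1.47 over the 416 thresholded regions, with quartiles of 1.18 and 1.80. The ratio was 1.23 at eef-1A.1, 1.42 at snr-1, 1.59 at eif-3.C and 1.70 at cpf-2, all between those quartiles. It was 2.35 at sftb-6, above 92.3% of the thresholded regions. By this ratio the sftb-6 region leaned on replicate 1. It ranked 217 of all nuclear regions in replicate 1 and 818 in replicate 2, outside that replicate's 416 highest. The eef-1A.1 region ranked 498 in replicate 1, outside the 416 highest there, and 374 in replicate 2, although its signal was higher in replicate 1. The replicate lists differ in length, so a difference in rank between them is not read as a change. The regions of snr-1 (33 and 28), eif-3.C (106 and 143) and cpf-2 (226 and 352) were among the 416 highest in both replicates.

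**Figure D2:**
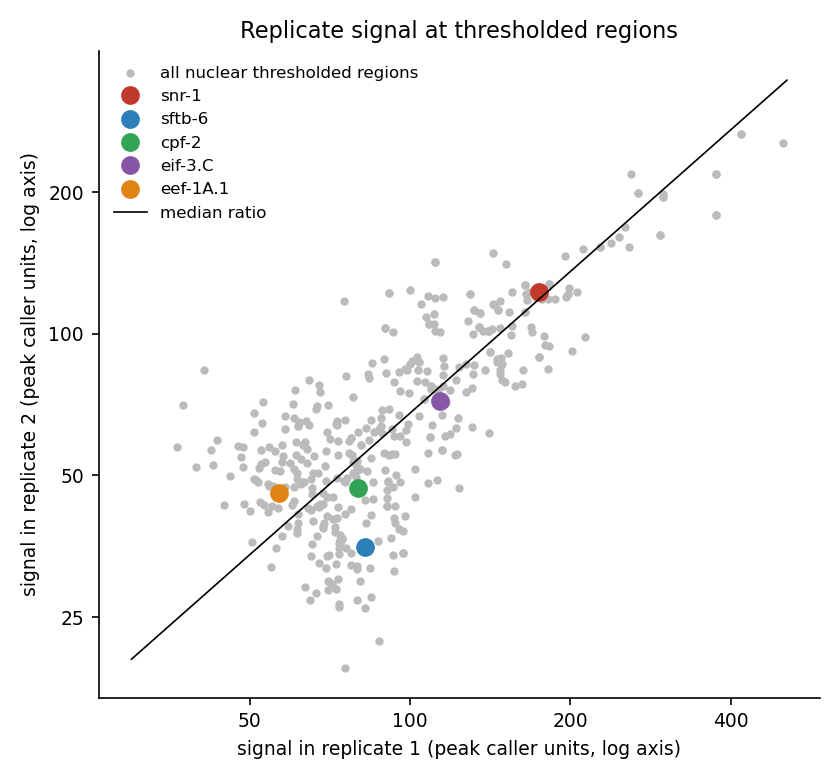
Signal in replicate 1 (horizontal, log axis) against replicate 2 (vertical, log axis), in peak caller units, for the 416 nuclear thresholded regions in grey and the 5 genes in colour; the line is the median ratio of 1.47. The sftb-6 point lies below the line at a ratio of 2.35, and the eef-1A.1 point lies above it at 1.23.

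Summits were placed at similar bases in the replicates. The replicate summits were 12 bp apart at eif-3.C, 22 bp at eef-1A.1, 27 bp at sftb-6, 28 bp at snr-1 and 63 bp at cpf-2. Over the thresholded regions the median gap was 37 bp, with quartiles of 16 and 70 bp, so 4 of the 5 genes lay under the median and cpf-2 above it. Most nuclear thresholded regions had a width of 490 bp, whereas the snr-1 region was 148 bp wide. It was 1 of 65 nuclear thresholded regions (15.6%) narrower than the median width.

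All 5 thresholded summits lay upstream of the gene start, taken as the 5′ end of the gene model. In the 5 genes this end lay 2 to 32 bp from the start codon, and transcription starts were not measured. Over all 315 pairs of a protein-coding gene and a thresholded summit within 1000 bp, 259 (82.2%) were upstream, and the median upstream distance was 297 bp. The distances of the 5 genes, from 169 to 468 bp, lay on both sides of that median. The relaxed lists added few downstream regions: 9 of 10 regions in the pooled list were upstream, 7 of 8 in replicate 1 and 9 of 11 in replicate 2.

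**Figure D3:**
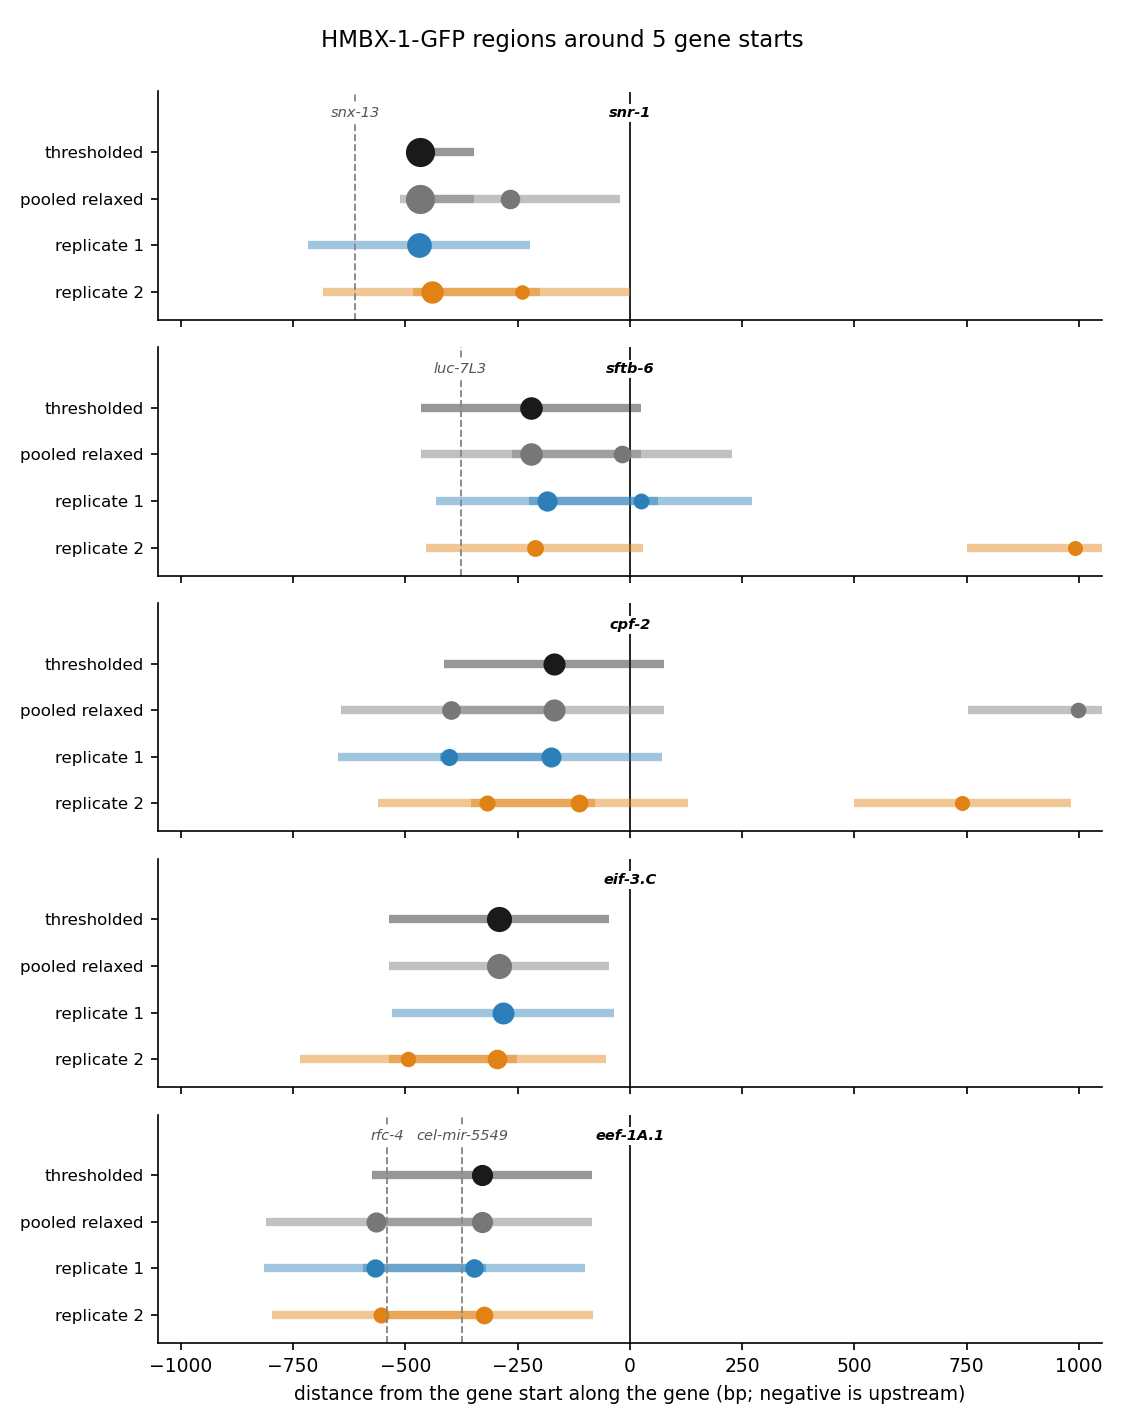
Regions around each gene start, along the direction of the gene in bp (negative is upstream), in the thresholded, pooled relaxed and replicate lists; bars are regions, dots are summits with a size that grows with signal, the solid line is the gene's own start and dashed lines are starts of other genes that lie closer to the thresholded summit. All 5 thresholded summits lie upstream, and 3 of the 5 genes have a closer start of another gene.

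The gene snr-1 (WBGene00004914), which encodes the SmD3-type protein of the Sm ring, lies on chromosome IV at 17088049 to 17088946 on the plus strand. Its thresholded region spanned 17087555 to 17087702, with the summit at 17087581, 468 bp upstream of the start and between genes. The start of snx-13, a sorting nexin gene on the opposite strand, was closer at 143 bp. These starts face away from each other and are 611 bp apart, so the summit lay in their shared upstream sequence, nearer to snx-13. Both replicates placed the summit there, 469 bp from the snr-1 start in replicate 1 and 441 bp in replicate 2.

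A weaker pooled region followed 201 bp closer to snr-1, at 267 bp upstream, and for this summit the snr-1 start was the nearest. Its signal was 71.8, under the threshold, against 299.3 for the main one. It was absent within 1000 bp of the start in the replicate 1 list and had a signal of 14.4 in replicate 2, rank 17692 of 22887. The stronger summit was thus the one that both replicates shared.

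The gene sftb-6 (WBGene00016808), the ortholog of the SF3b subunit that contacts the branch point, lies on chromosome II at 98404 to 98961 on the plus strand, 98.4 kb from the chromosome end. Its thresholded region spanned 97940 to 98429 with the summit at 98185, 219 bp upstream and between genes. The closer start was that of luc-7L3, on the opposite strand at 158 bp, with 377 bp between the starts. The protein of luc-7L3 is a relative of human LUC7L3, a splicing factor associated with the U1 particle, so the genes on either side of this summit both belong to splicing. luc-7L3 is not in the gene list counted further on.

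Which start was nearest at sftb-6 depended on the replicate. In replicate 1 the summit was 184 bp from sftb-6, which was then the nearest start, and in replicate 2 it was 211 bp away with luc-7L3 at 166 bp. A weaker pooled summit of signal 44.4 lay 17 bp upstream of the sftb-6 start, and replicate 1 had one of 25.5 placed 24 bp downstream of the start, within the coding sequence. Replicate 2 instead had a region of 18.01 at 992 bp downstream, where the start of C50D2.10 was closer at 258 bp.

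The gene cpf-2 (WBGene00000774), the ortholog of the RNA-binding subunit of cleavage stimulation factor, lies on chromosome III at 13266932 to 13268883 on the minus strand. Its thresholded region spanned 13268807 to 13269296, with the summit at 13269052, 169 bp upstream of the start, the shortest distance of the 5. No other start was closer in any of the 4 lists. The next gene upstream, the syntaxin gene unc-64, began 8375 bp away on the opposite strand. A weaker pooled summit of signal 58.6 lay farther upstream at 399 bp, with 38.2 in replicate 1 and 27.04 in replicate 2. An intron of cpf-2 held low regions, 23.3 in the pooled list and 18.8 in replicate 2, at 997 and 739 bp downstream.

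The gene eif-3.C (WBGene00001226), a core subunit of the eIF3 complex, lies on chromosome I at 9976426 to 9979662 on the minus strand, far from either chromosome end. Its thresholded region spanned 9979709 to 9980198, with the summit at 9979954, 292 bp upstream. No other start was closer. The gap to the next gene upstream, the beta-catenin gene sys-1 on the same strand, was 401 bp, and the summit lay 109 bp from the 3′ end of sys-1. This was the most isolated of the 5 summits in the pooled list, where the nearest other summit was 2285 bp away with a signal of 23.1. Replicate 2 alone had a further region of 21.5, at 494 bp upstream in the 3′ untranslated part of sys-1. Another thresholded summit, of signal 216.7, lay 8941 bp away.

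The gene eef-1A.1 (WBGene00001168), also called eft-3, lies on chromosome III at 6970026 to 6971712 on the minus strand, near the middle of the chromosome. Its thresholded region spanned 6971796 to 6972285, with the summit at 6972041, 329 bp upstream. Closer starts belonged to cel-mir-5549, an annotated microRNA gene that contains the summit and whose start was 44 bp away, and to rfc-4, a replication factor C subunit gene on the opposite strand at 212 bp. The starts of eef-1A.1 and rfc-4 are 541 bp apart.

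The eef-1A.1 neighbourhood had a companion summit close in signal to the main one in replicate 1 but not in replicate 2. In the pooled list it had a value of 80.6, below the threshold, and lay 237 bp from the main summit, 25 bp inside rfc-4 and within its coding sequence. In replicate 1 its signal was 53.0 against 56.7 at the main summit, a ratio of only 1.07. In replicate 2 it was 27.5 against 45.97, a ratio of 1.67. The pooled ratio of main to weaker summit was 1.23 here, compared with 2.00 at cpf-2, 2.82 at sftb-6 and 4.17 at snr-1. Companion summits were common: 312 of the 416 thresholded regions (75%) had another pooled summit within 300 bp. Over all 416 regions the median gap to the nearest other pooled summit was 205 bp. The smallest summit spacing anywhere in the pooled nuclear list was 199 bp.

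At 2 of the 5 genes, cpf-2 and eif-3.C, the gene's own start was the nearest to the thresholded summit. The other 3 sat in a shared upstream stretch between a pair of divergent starts under 1000 bp from each other. Divergent starts this close, counted wherever the summit lay, were present at 135 of the 297 protein-coding genes with a thresholded region (45.5%). They were present at 3539 of all 19973 (17.7%). A single summit can bring both genes of a pair into the 297, which raises the first share. Both shares are descriptions with no test. ChIP-seq regions of this width do not assign a summit to 1 gene of such a pair, and no expression was measured. None of the 5 summits lay near a small structural RNA gene: the nearest transfer, nucleolar, spliceosomal or ribosomal RNA gene was 13603 bp from the eif-3.C summit and 30346 bp or more from the other 4.

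Base composition around the summits differed between the genes, and G and C were below the median of the thresholded regions at 4 of the 5. In the 101 bp centred on the summit, G and C made up 18.8% at sftb-6, 27.7% at snr-1, 36.6% at eif-3.C, 39.6% at eef-1A.1 and 49.5% at cpf-2. The median was 48.5% over all 416 thresholded regions and 33.7% over the 29307 nuclear pooled relaxed regions that overlap no thresholded one. Only 0.481% of thresholded regions had a lower share than sftb-6, and 4.33% had a lower share than snr-1, while cpf-2 was close to the middle. Against the 156 thresholded regions with a protein-coding start within 1000 bp and no small RNA gene within 250 bp, whose median was 45.5%, the shares below sftb-6 and snr-1 were 1.28% and 8.33%.

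Short sequence words were searched on both strands of the same 101 bp windows. The words searched were TTGCAA, then the word GTTCGA, then the word AGTGGT, then the word TAGTTA and lastly the TATA-box word TATAAA. Each was absent from all 5 windows, which says only that these letters were not there. The printed sequences are longer than the windows searched. The one for snr-1 holds TTTATA, the reverse complement of the TATA-box word, outside its 101 bp window. Across all 416 thresholded windows their shares, in that order, were 11.5%, 23.3%, 17.5%, 1.68% and 7.69%. Across the sub-threshold windows the shares were 5.51%, 3.23%, 3.13%, 4.197% and 13.3%, and across all protein-coding promoters, taken as 300 bases, they were 14.8%, 9.85%, 8.96%, 11.3% and 37.9%. The promoter windows are longer, so their shares are not on the same footing. The choice of comparison set mattered: over the 156 thresholded regions near a protein-coding start and away from small RNA genes, the shares were 23.7% for the first word, 5.77% for each of the next pair, 1.28% for TAGTTA and 8.97% for the TATA-box word.

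The word TGACGTCA, the palindromic form of the cyclic AMP response element, was looked up after the cpf-2 window had been read. It stands in the cpf-2 window 5 bp from the summit and 174 bp from the gene start, partly in the capitals of the printed sequence. It was in 1 of the 5 windows, in 2 of the 416 thresholded windows (0.481%), in 0.628% of the sub-threshold windows and in 1.51% of promoters. Of all 2080 words of 6 letters, counting a word and its reverse complement once, 13 were in 3 or more of the 5 windows and 0 were in 4 or more. No exact word of 6 letters was therefore shared across the set, and shorter, gapped or inexact matches were not searched. Each of those 13 words was in 7.92% to 55.9% of the sub-threshold windows, and in a smaller share of the thresholded windows.

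The same steps of gene expression were then described through 2 wider gene lists that include the 5 genes. Of 99 splicing and RNA processing genes matched in the annotation, 7 (7.07%) had a thresholded summit within 1000 bp, and of 67 translation genes, 4 (5.97%) had one. The share over all protein-coding genes was 1.49%. Among genes with any pooled relaxed region in the window, the shares were 8.75% of 80 splicing and RNA processing genes and 7.84% of 51 translation genes, beside 3.22% of 9225 over all protein-coding genes. The median of each gene's highest pooled signal was 40.2 in the splicing and RNA processing list and 40.8 in the translation list, beside 34.2 over all 9225. Because 5 of these 11 genes were picked for having a region, the list shares are descriptions and no test was made.

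**Figure D4:**
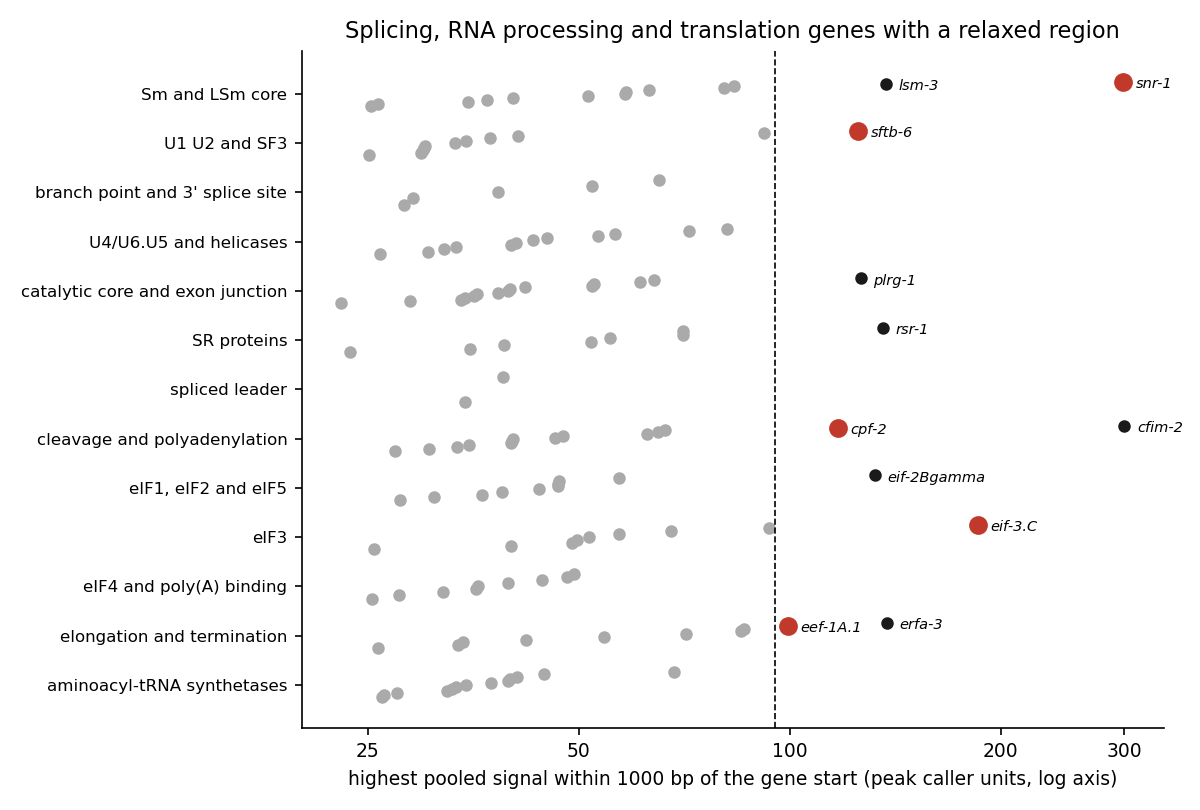
Highest pooled relaxed signal within 1000 bp of the start (peak caller units, log axis) for the genes of each role group in the 2 lists; red points are the 5 genes, black points are other list genes with a thresholded region, grey points are below the threshold, and the dashed line is the lowest thresholded signal of 95.3. Most genes of every group lie in grey below the line.

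Counts by role group stand beside a share of 1.49% over all protein-coding genes. The groups are small beside that share, so a group with none is not read as a result. The Sm and LSm proteins had thresholded regions at 2 of 15 genes, snr-1 and lsm-3, and the U1, U2 and SF3 group at 1 of 13, sftb-6. Cleavage and polyadenylation had 2 of 16, cpf-2 and cfim-2, the catalytic core and exon junction complex 1 of 17, plrg-1, and the SR proteins 1 of 11, rsr-1. In translation there was 1 of 13 for the eIF1, eIF2 and eIF5 group, eif-2Bgamma, 1 of 11 for eIF3, eif-3.C, and 2 of 13 for elongation and termination, eef-1A.1 and erfa-3. None were counted among 18 genes of the U4/U6.U5 particle and helicases, 5 of branch point and 3′ splice site recognition, 4 of spliced leader trans-splicing, 10 of the eIF4 and poly(A)-binding group and 20 aminoacyl-tRNA synthetases.

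The 6 list genes beyond the chosen 5 mostly shared their summit with other starts. plrg-1, a spliceosome core gene, had a signal of 126.3 at 224 bp upstream, and erfa-3, a release factor gene, had 137.7 at 289 bp upstream, both with no closer start. rsr-1, which encodes an SR-related protein, had 135.8 at 449 bp, with sri-5 closer at 283 bp. lsm-3 had 137.2 at 979 bp upstream, and 3 closer starts, of which the nearest was 100 bp away. cfim-2, a subunit gene of cleavage factor Im, had 300.4 at 888 bp downstream, with 3 closer starts. These were the pseudogene WBGene00014724, whose start was only 12 bp from the summit, the nucleolar RNA gene D1046.6 and the noncoding RNA gene D1046.11. eif-2Bgamma had 132.3 at 718 bp upstream. Its 4 closer starts were those of C15F1.14, 21ur-14704, mir-1831 and sup-39, with the nearest 26 bp away. Another thresholded summit, with a signal of 101.4, lay at 6968569 on chromosome II, farther upstream of eif-2Bgamma.

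Close relatives of the 5 genes were mostly below the threshold, as were most protein-coding genes, of which 1.49% had a thresholded region. The members were chosen for being above it, so no contrast with their relatives is read. For reference, the median of the highest pooled signal was 34.2 over the 9225 protein-coding genes with a pooled region in the window. Among the Sm genes, the highest pooled signal was 83.2 at snr-4, 58.5 at snr-5, 58.2 at snr-6, 37.0 at snr-7 and 25.2 at snr-3, and snr-2 had no pooled region in the window. In SF3b, sftb-1 had 40.9 and sftb-2 had 34.6 within 1000 bp, although a thresholded summit of 113.7 lay 1510 bp from sftb-2. Of the 16 cleavage and polyadenylation genes, 14 had a pooled region in the window. Apart from the thresholded regions of cpf-2 and cfim-2, their values ran from 27.4 at cpf-1 to 66.5 at cpsf-1, with 64.9 at pfs-2 and 62.5 at pcf-11, and cpsf-2 and suf-1 had none.

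The other eIF3 subunits ranged from 25.5 at eif-3.F to 93.4 at eif-3.E, with eif-3.J and eif-3.L having none. The value at eif-3.E, 174 bp upstream of its start, was just below the threshold. The paralog of eef-1A.1, eef-1A.2, had 85.1 in the pooled list, 50.6 in replicate 1 and 27.9 in replicate 2, at 419 bp upstream, where the noncoding RNA gene R03G5.8 was closer at 290 bp. The pooled values of the paralogs, 99.5 and 85.1, thus fell on either side of a threshold of 95.31, and the difference between them has no replicate test.

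The 3 genes of each list with the highest signal below the threshold were named as its nearest outsiders. In splicing and RNA processing they were prp-21 with a signal of 92.0, an SF3a gene, then snr-4 with 83.2 and 2 closer starts of other genes, and the helicase gene mog-5 with 81.4. In translation they were eif-3.E with 93.4, then abcf-2 with 86.1 and 2 closer starts, and eef-1A.2 with 85.1. Thresholded summits beyond the 1000 bp limit lay at 1234 bp from rsp-4, 1283 bp from luc-7L, 1423 bp from sna-1 and 1811 bp from fars-1.

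The genes most like the 5 in signal were taken as those nearest in rank over the 416 regions, a likeness of 1 value per region from the pooled replicates. Counting regions near a protein-coding start, those ranked next to snr-1 lay within 1000 bp of cfim-2, at 300.4 and with the closer starts named above, and of the ribosomal protein gene rpl-3, at 292.8. Next to eif-3.C were C01C4.3 at 187.9 and tos-1 at 185.0. Next to sftb-6 were a region shared by dnj-29, ndua-2 and fld-1 at 125.5 and that of srd-44 at 124.2. Next to cpf-2 were C05G5.2 at 117.4 and a region shared by mrg-1 and spcs-2 at 117.0, and next to eef-1A.1 were him-17 at 100.6 and znf-207 at 99.5.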

How the data were processed

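HMBX-1-GFP ChIP-seq regions from 2 biological replicates of early embryos were used as deposited, in the narrowPeak layout on assembly ce11. Per the deposited notes, the authors called relaxed lists for each replicate and for the pooled alignments against a control that all lists share, and made the thresholded list from them by the IDR procedure. The signal value and the −log10 q value per region are the authors' deposited values, and the summit offset in each deposited file was added to the region start to give a 1-based summit. Read depth is unknown. Not given in the sources used here are the aligner, the peak caller, the signal's scale and the IDR cut-off.

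Lists on ce10 were not used, since coordinates were not converted. Chromosome names and lengths allowed all ce11 regions to be placed on the RefSeq WBcel235 genome. Gene starts, the 5′ ends of gene models, came from Ensembl WBcel235 release 115. Mitochondrial regions were left out. Every summit within 1000 bp of a start was kept, with its rank by signal among nuclear regions of its list. Words were searched in 101 bp around the summit, with 50 bp on either side. Matching was tested on simulated data with planted summits.

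The members and gene lists were chosen with earlier results of these data known, and no test was run. Of 178 listed genes, 12 symbols had no match in the annotation (7 in splicing and RNA processing, 5 in translation) and were not counted. Named genes are the 5 members, genes with a closer start, other list genes with a thresholded region, the 3 list genes of highest signal without one, and the genes next in signal rank. Relatives of the members, summits beyond the window, the word TGACGTCA and the comparison of base composition with promoter regions were added after the values were seen. Alternatives were other distances, a stricter and a looser signal limit, the nearest start alone, any annotated transcript start, and each replicate's own highest 416 regions. A count within 1.5 times was treated as unchanged. Python 3.11.15, pandas 2.3.3, numpy 2.4.6 and matplotlib 3.10.9 were used.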

Additional observations from a re-analysis of the deposited data

How the results depend on the processing

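Distance to the start, the signal limit and the rule for closer starts moved the counts by more than 1.5 times. With 250 bp in place of 1000 bp, 2 of the 5 members had a thresholded region (snr-1, eif-3.C and eef-1A.1 lost theirs), as did 3 splicing and RNA processing genes in place of 7 and 0 translation genes in place of 4. With 2000 bp the splicing and RNA processing count was 11. With the 208 regions of highest signal, the counts were 2 members (sftb-6, cpf-2 and eef-1A.1 lost), 4 splicing and RNA processing genes and 2 translation genes, and with the 832 highest pooled regions the list counts were 11 and 7 in the same order. Counting a gene only where its start was the nearest left 2 members (cpf-2 and eif-3.C), 2 splicing and RNA processing genes and 2 translation genes. The share of all protein-coding genes moved too, to 0.601% at 250 bp, 2.25% at 2000 bp, 0.706% with the stricter limit, 2.87% with the looser one and 0.651% with the nearest start alone. In the highest 416 regions of a single replicate, 4 members remained in each case, without sftb-6 in replicate 2 and without eef-1A.1 in replicate 1. The sftb-6 region ranked 217 in replicate 1 and 818 in replicate 2, in lists of different length. Counts at 500 bp and with any annotated transcript start stayed within 1.5 times. No paired analysis was possible because the samples form a single group. With 2 replicates, unknown read depth and no untagged control, neither counting error nor background of the tag can be given for any value.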
